A study of Rattus norvegicus with 6 samples.

Results

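Homeobox genes encode transcription factors that bind DNA through a homeodomain. The 25 gene symbols described here were taken from the deposited gene table of RUCA-I cells by their names, as every symbol that begins with Hoxa to Hoxd, Pbx, Meis, Msx, Lhx, Irx, Pitx, Dlx, Emx, Rhox or the sine oculis stem (as in Six4), followed by a number. They come from 44 rows of 26751, and the row with the longest locus was kept for each symbol. Where loci were equally long, the row with the higher mean was kept. The 25 symbols then lay on 23 rows, because Hoxb3, Hoxb5 and Hoxb6 share 1 row. One of the symbols, Dlx6as, names an antisense transcript of the Dlx6 locus and no homeodomain protein.

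RUCA-I is an epithelial line from an endometrial adenocarcinoma of a Lewis rat. The wild-type (WT) group is 3 batches of that line, and the knockout (KO) group is 3 lines, each made separately, with the genotype miR-203 -/-. All cells were left untreated and were harvested near confluence. The authors gave 1 FPKM value per row and group (fragments per kilobase, adjusted for library size), so values per sample, an SD or an overlap of groups cannot be shown and the read depth is unknown. Only the authors tested against replicate spread, with Cuffdiff, and a row is called where its q (the p-value adjusted over all tested rows) was under 0.05. Positions of rows are on rn6. As the KO samples are separate lines and the WT samples are batches, a difference between lines and an effect of the lost microRNA cannot be told apart. Epithelial markers were high, with 7 of 8 in the table at 40.5 to 501 FPKM in WT cells. Of the stromal, leukocyte, endothelial, muscle and nerve markers, 3 had a row (Col1a1 1.43, Cd79a 31.7 and Myh11 1.204 FPKM in WT cells), and of 10 uterine markers 6 had a row, from Foxa2 at 0.213 FPKM to Pax8 at 75.4 FPKM in WT cells. In KO cells the epithelial markers stood at 38.2 to 419 FPKM and Cd79a, a B cell marker, at 23.9 FPKM. Without adjustment, 3 of the 7 epithelial markers (Epcam lower, Krt8 and Krt18 higher in KO cells), 3 of the 6 uterine markers and Cd79a had p under 0.05 in the authors' deposited table, and of these Wnt7a alone was called. The part of these shifts in the results was not tested.

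In the embryo, Hox genes specify position along the body axis, and within a cluster genes near the 3' end (low paralog numbers) act in anterior and those near the 5' end in posterior territories. The female reproductive tract forms from the Mullerian duct under posterior Hox genes, and Emx2 and Lhx1 are needed to make that duct. Hox proteins gain binding specificity by pairing with the three-amino-acid-loop (TALE) homeodomain proteins of the Pbx and Meis families. Rhox genes form a reproductive homeobox cluster on the X chromosome that is expressed in testis, ovary, epididymis and placenta.

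The microRNA removed from the KO cells and the microRNA that lies inside the HoxB cluster are shown because they are the study's perturbation and the small RNA whose host region is measured here. Mature sequences are from RefSeq (GRCr8, plus strand of chromosomes 6 and 10), with the seed (bases 2 to 8) in capitals.
rno-miR-203a-3p: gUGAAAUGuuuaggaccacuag
rno-miR-203a-5p: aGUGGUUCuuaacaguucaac
rno-miR-10a-5p: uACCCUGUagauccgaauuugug

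The 3 seeds differ. The row named Mir10a covers the same stretch of chromosome 10 as the Hoxb3 to Hoxb6 rows and measured 0.668 FPKM in WT and 0.688 FPKM in KO cells. That value counts longer RNA from the region and does not measure the mature microRNA.

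Only 1 homeobox row was called by the authors' test. Rhox5, also named Pem, measured 11.5 FPKM in WT and 52.6 FPKM in KO cells, a 4.55-fold increase, where the authors' deposited table lists q = 0.00756. Its row lies on rn6 at chromosome X, 123912044 to 123916989. The q belongs to the smallest p that occurs in the authors' deposited table (5e-05), which 175 called rows share, so it does not rank Rhox5 among them. By the KO to WT ratio Rhox5 stood at place 16 of 114 called increases with at least 1 FPKM in one group and a value above 0 in both. Of 17895 tested rows with at least 1 FPKM in WT cells and above 0 in KO cells, 28, counting Rhox5 itself, had a ratio at or above that of Rhox5.

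The other 22 homeobox rows did not pass the test. The count of 1 in 23 rows stands against a background of 1.05% of 26459 tested rows called in either direction, as 0.491% of all tested rows were called higher and 0.556% lower. Without adjustment, 3 of the 23 rows had p under 0.05 in the authors' deposited table, namely Rhox5, Six4 and Pbx4, where 6.002% of all tested rows did. The median log2((KO + 1)/(WT + 1)) over the 23 rows was 0.01, beside 0.02 over all tested rows. The KO value was the higher one for 12 rows and the lower one for 11, which became 5 and 18 when both groups were scaled to the same summed FPKM.

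**Figure D1:**
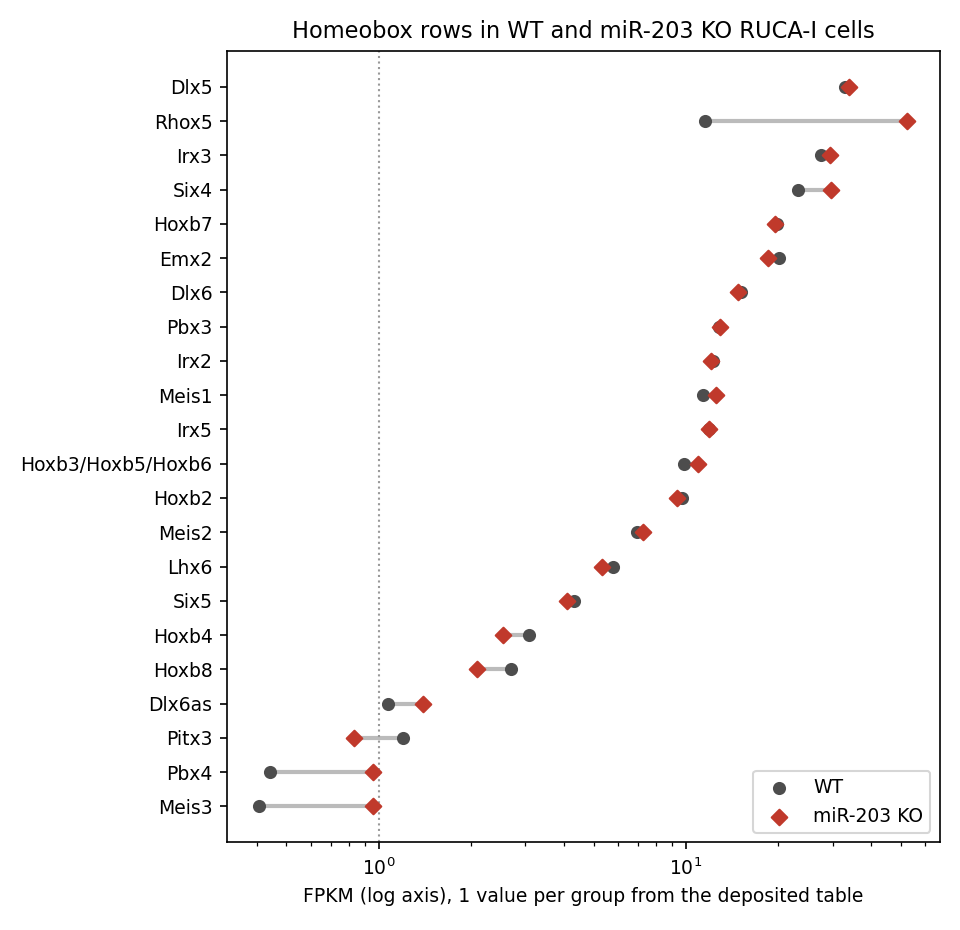
FPKM in WT (grey circles) and miR-203 KO cells (red diamonds) for 22 of the 23 homeobox rows, on a log axis, ordered by mean, with 1 deposited value per group and no error; the dotted line marks 1 FPKM. The pairs of symbols lie close together except for Rhox5, which goes from 11.5 to 52.6 FPKM, and the low rows Pbx4 and Meis3.

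Of the 23 rows, 21 averaged 1 FPKM or more, and their levels spanned the range from Pitx3 to Dlx5. Among those 21, 15 (71.4%) had WT and KO values within 1.2-fold of each other, compared with 69.9% of the 18090 tested rows at that level. Leaving Rhox5 aside, the KO to WT ratio of the remaining 20 ran from 0.693 for Pitx3 to 1.305 for Dlx6as. Summed over all 23 rows, the homeobox FPKM was 270.5 in WT and 321 in KO cells, and without Rhox5 it was 259 and 269.

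**Figure D2:**
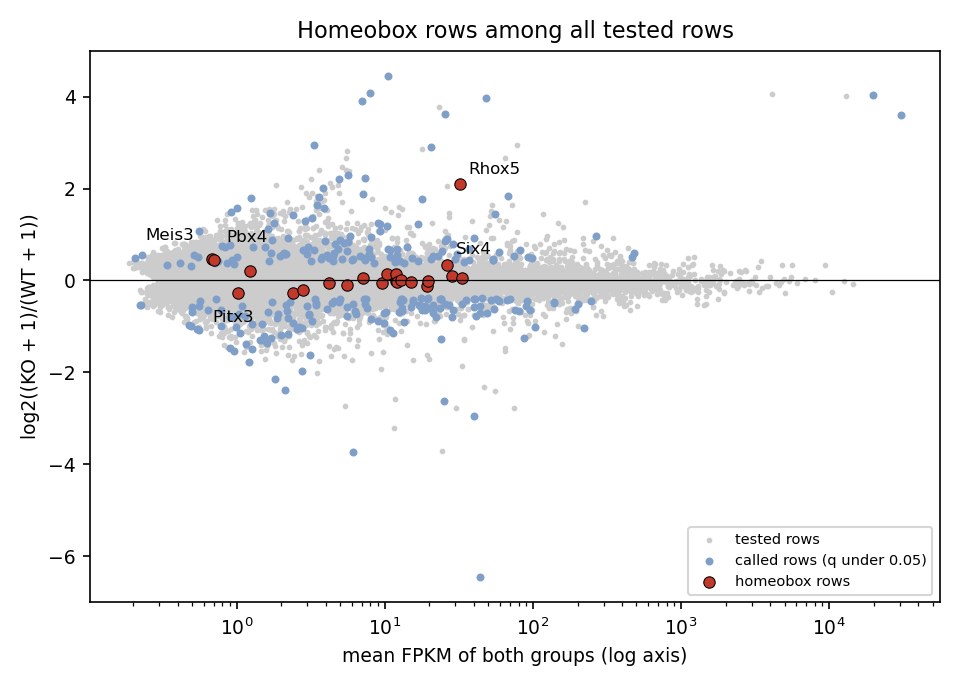
log2((KO + 1)/(WT + 1)) against the mean FPKM of both groups (log axis) for tested rows that average 0.1 FPKM or more (grey), rows called by the authors at q under 0.05 (blue) and 22 of the 23 homeobox rows (red). Rhox5 lies at 2.09, and the other homeobox rows lie within the grey cloud.

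Rows around Rhox5 gave no call. Within 1 Mb on either side lay 15 other rows, of which 0 were called by the authors' Cuffdiff test and 1 had an unadjusted p under 0.05. Over all tested rows, 1.05% were called and 6.002% had an unadjusted p under 0.05. So few rows would rarely hold a call at that share, and their count says little. The nearest named gene before it, Nkap, a nuclear NF-kB activating protein, measured 10.2 FPKM in WT and 12.0 FPKM in KO cells. The KO to WT ratio of the 11 neighbouring rows of at least 1000 bp ran from 0.779 for Lamp2, a lysosomal membrane protein (53.1 and 41.4 FPKM), to 1.17 for Nkap. On the whole X chromosome the authors called 11 of 735 tested rows (1.497%, beside 1.05% of all tested rows), 4 higher and 7 lower. No other Rhox symbol matched a row, so the rest of the Rhox cluster was not analysed here.

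**Figure D3:**
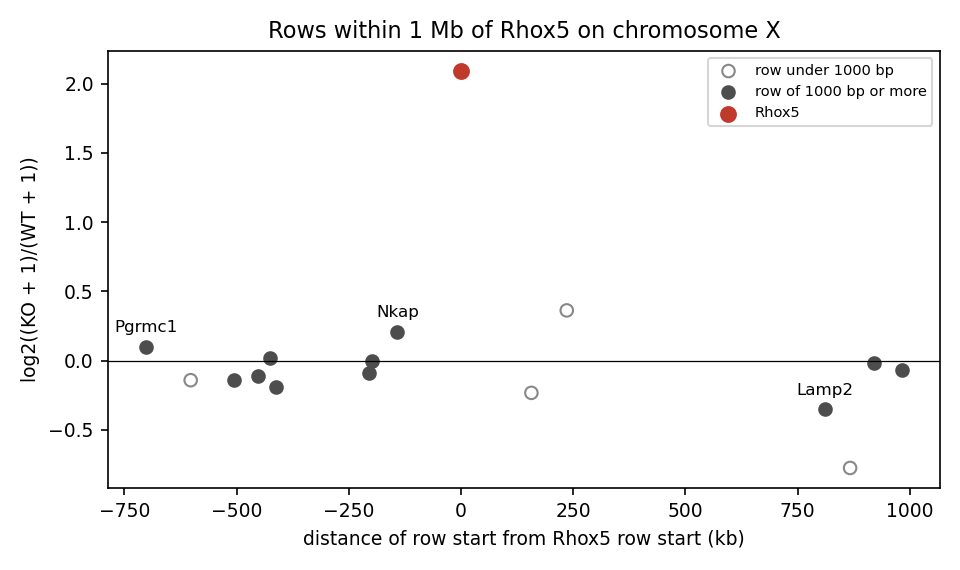
log2((KO + 1)/(WT + 1)) of each row within 1 Mb of Rhox5 against the distance of its start from the start of the Rhox5 row, in kb; open circles are rows under 1000 bp. Rhox5 lies at 2.09, and the filled neighbours lie between Lamp2 (−0.35) and Nkap (0.21).

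The Hox rows that the rule found all belong to the HoxB cluster on chromosome 10, and they covered paralogs 2 to 8. Hoxb7 was the highest, with 19.8 FPKM in WT and 19.5 FPKM in KO cells (rn6 chromosome 10, 84134348 to 84138642). Among rows that name a single gene, Hoxb2, an anterior gene of hindbrain patterning, followed at 9.73 and 9.38 FPKM (84200864 to 84203233). Hoxb8, the gene next to Hoxb7 and the highest paralog number found, was low, at 2.70 and 2.08 FPKM (84131591 to 84133679). Level did not follow position along the cluster, because the highest and one of the lowest rows were neighbours.

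The middle of the cluster is less well resolved. A stretch of 56314 bp (84140962 to 84197275) carries 9 rows with the same coordinates, so how reads were divided between them is uncertain. The row that names Hoxb3, Hoxb5 and Hoxb6 together measured 9.85 FPKM in WT and 10.97 FPKM in KO cells. Hoxb4 had a row of its own at 3.09 and 2.54 FPKM. Separate rows of Hoxb5 (4.21 and 4.62 FPKM) and Hoxb3 (2.73 and 2.78 FPKM) were lower than the shared row. Another 3 rows named Hoxb3 had a value of at most 1.01 FPKM in either group.

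**Figure D4:**
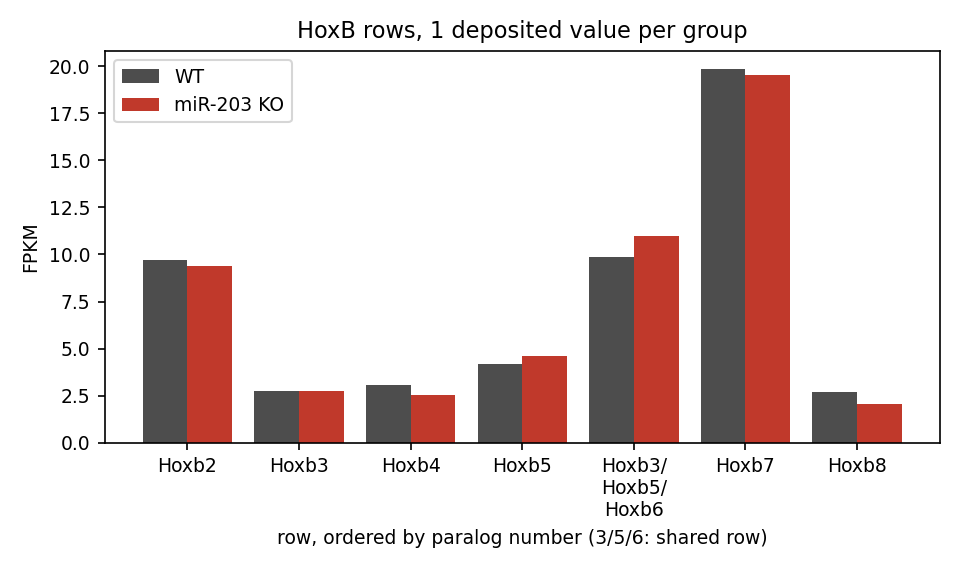
FPKM of the HoxB rows in WT (grey) and miR-203 KO cells (red), ordered by paralog number, with the shared row of Hoxb3, Hoxb5 and Hoxb6 placed after Hoxb5; bars start at 0 and are single deposited values. Hoxb7 is the tallest pair at 19.8 and 19.5 FPKM, and the 4 tallest rows come in the same order in both groups.

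The shares of the rows differed little between the groups. Over the 5 kept Hox rows the sum was 45.2 FPKM in WT and 44.5 in KO cells. Hoxb7 made up 43.9% of it in each group, Hoxb2 21.5% in WT and 21.1% in KO cells, and the shared row 21.8% and 24.7%. Hoxb4, Hoxb7 and Hoxb8, the kept rows that name only a central paralog, together made up 56.7% in WT and 54.3% in KO cells. In the authors' deposited table, the lowest q among the 10 HoxB rows was 0.997 and 0 of them had an unadjusted p under 0.05. Symbols of the HoxA, HoxC and HoxD clusters, Hoxb1 and the posterior HoxB genes matched no row and were not analysed here. RefSeq lists 93 protein-coding rat symbols that fit the rule, of which 24 were in the table, and 7071 rows of the table carry no symbol, so a missing symbol says nothing about expression.

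Of the TALE partners, Pbx3 stood at 12.8 FPKM in WT and 12.9 FPKM in KO cells (chromosome 3, 13240982 to 13436068). Meis1, which forms complexes with Pbx and Hox proteins, stood at 11.3 and 12.6 FPKM (chromosome 14, 103181874 to 103322411), and its paralog Meis2 at 6.93 and 7.23 (chromosome 3, 107560177 to 107763017). None of these 3 passed the test, and the largest difference among their kept rows was the 1.11-fold ratio of Meis1. A second row of Meis1 with the same coordinates went the other way, at 7.11 FPKM in WT and 6.36 FPKM in KO cells. For that row the authors' deposited table lists q = 0.997, and how reads were divided between the Meis1 rows is uncertain. Over the kept rows alone, the summed Meis level was 18.7 FPKM in WT and 20.8 in KO cells.

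Meis3 and Pbx4 were the lowest rows. Meis3 measured 0.409 FPKM in WT and 0.956 FPKM in KO cells (chromosome 1, 78069267 to 78079651), and Pbx4 measured 0.442 and 0.956 FPKM (chromosome 16, 21336589 to 21338756). With a pseudocount of 1, which damps the change of low rows, their log2 ratios were 0.47 and 0.44. Their q was 0.997 and 0.774 in the authors' deposited table. Pbx4 was split over 9 short rows of 246 to 2168 bp between 21309245 and 21338756. The KO value was the higher one in 8 of the 9 and none was called, and 8 had been tested. The row of Pbx4 at 21309245 to 21309490 was listed at 0 in WT and stood at 1.48 FPKM in KO cells, where the authors' deposited table lists q = 0.13. Counted over all symbols, 21 further rows were not kept, 19 of them tested, and KO was the higher value in 17 of these. The Cuffdiff test called 0 of the 19, and 1 had an unadjusted p under 0.05. Of the 19, 15 had a mean under 1 FPKM. Among all 8369 tested rows under 1 FPKM the KO value was the higher one in 59.5%.

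Of the sine oculis family, whose members act in muscle, kidney and sensory organ formation with Eya coactivators, Six4 came nearest to a call. It measured 23.2 FPKM in WT and 29.7 FPKM in KO cells, a ratio of 1.28 for which the authors' deposited table lists p = 0.0013 and q = 0.0991 (chromosome 6, 95984865 to 95998514). A second row of Six4 with the same coordinates stood at 8.42 and 14.5 FPKM, where the authors' deposited table lists q = 0.997. How reads were divided between the Six4 rows is uncertain. Six5, which lies beside the myotonic dystrophy kinase gene, stood at 4.31 and 4.11 FPKM (chromosome 1, 80000274 to 80004009).

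The Iroquois genes Irx2, Irx3 and Irx5 are regulators of patterning in heart, nervous system and ovary. Over the kept rows they held the largest summed level of any family in WT cells, 51.6 FPKM, and stood at 53.3 in KO cells. This ranking leaves out the rows that were not kept, such as the separate rows of Hoxb3 and Hoxb5. Irx3 measured 27.4 FPKM in WT and 29.4 FPKM in KO cells (chromosome 19, 15838523 to 15842133). Its neighbour Irx5 had the same value in both groups to 3 digits, 11.9 FPKM (16393264 to 16415889), and Irx2 had 12.2 and 12.0 (chromosome 1, 33270386 to 33275868). No Iroquois row passed the test.

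The Dlx pair on chromosome 4, known for limb, jaw and forebrain development, was also well expressed. Dlx5 measured 32.9 FPKM in WT and 34.0 FPKM in KO cells (32386994 to 32391991), the highest WT level of the 23 rows and higher in mean than 74.2% of 10860 symbols with at least 1 FPKM. Dlx6 stood at 15.1 and 14.8 FPKM (32334062 to 32379584). Dlx6as, which shares the coordinates of Dlx6, stood at 1.07 and 1.40 FPKM. The libraries keep strand, but the counting setting is not given in the sources used here, so reads of Dlx6 and Dlx6as may not be fully parted. All 5 rows of Dlx6as had the higher value in KO cells and none was called. They share the same coordinates, so how reads were divided between them is uncertain. All but the kept row lay under 1 FPKM in both groups. The KO value was the higher one in 53.7% of all tested rows and in 59.5% of those averaging under 1 FPKM.

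Among the remaining genes, Emx2, which is required for the urogenital tract and is known as a Hox-regulated gene in endometrium, measured 20.1 FPKM in WT and 18.4 FPKM in KO cells (chromosome 1, 280626567 to 280671864). Lhx6, a LIM homeodomain factor of interneurons and teeth, stood at 5.79 and 5.33 FPKM (chromosome 3, 15409614 to 15419398). Pitx3, a factor of lens and dopamine neurons, stood at 1.196 and 0.830 FPKM, where the authors' deposited table lists q = 0.944 (chromosome 1, 265887014 to 265888644). Neither these nor any other row besides Rhox5 was called, and no Msx symbol matched a row.

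Sequence upstream of the start was matched for 9 of the 25 symbols in RefSeq (GRCr8), which gave 10 windows of 250 bases, as Meis3 has 2 starts. Among those not matched were Rhox5, the HoxB genes, Pbx3, Meis2, Emx2, Irx5, Dlx5, Dlx6 and Dlx6as. Of the 10 windows, 9 held more CG dinucleotides than the median of 5 over all 33469 windows, with a median of 13.5 and a range of 3 to 23. Their G and C content ran from 43.6% to 76.0%, where the median of all windows was 51.2%. The upstream windows of a high row (Irx3), the row nearest to a call after Rhox5 (Six4) and a row under 1 FPKM (Pbx4) are shown to compare CG content across levels, each as 250 bases that end just before the start, with CG in capitals.
Irx3, GRCr8 chr19:31384868-31385117, plus strand: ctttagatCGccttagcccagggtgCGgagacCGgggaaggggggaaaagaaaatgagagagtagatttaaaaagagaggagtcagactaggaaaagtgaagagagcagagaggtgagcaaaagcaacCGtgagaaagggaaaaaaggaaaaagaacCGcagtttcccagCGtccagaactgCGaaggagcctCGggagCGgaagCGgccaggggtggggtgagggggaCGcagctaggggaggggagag
Six4, GRCr8 chr6:97551873-97552122, minus strand: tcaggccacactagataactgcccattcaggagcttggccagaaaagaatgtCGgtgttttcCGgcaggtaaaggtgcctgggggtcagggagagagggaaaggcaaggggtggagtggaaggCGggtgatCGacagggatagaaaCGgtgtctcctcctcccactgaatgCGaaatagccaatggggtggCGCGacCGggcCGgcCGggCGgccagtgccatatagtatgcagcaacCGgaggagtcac
Pbx4, GRCr8 chr16:19623922-19624171, minus strand: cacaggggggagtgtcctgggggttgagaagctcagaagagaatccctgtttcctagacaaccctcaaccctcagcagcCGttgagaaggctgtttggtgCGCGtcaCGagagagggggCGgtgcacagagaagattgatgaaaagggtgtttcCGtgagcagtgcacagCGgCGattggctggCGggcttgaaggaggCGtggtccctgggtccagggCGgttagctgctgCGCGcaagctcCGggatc

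These windows hold 11 CG for Irx3, 13 for Six4 and 14 for Pbx4. Among these 3 the lowest row had the most CG and the highest WT row the fewest. The other windows did not keep this order. Meis3 (0.409 FPKM in WT cells) had 3 and 11 CG, and Irx2 (12.2 FPKM) and Pitx3 (1.196 FPKM) had 23 each. A set of 6 short motifs, none of which contains another, was searched on both strands. The Sp1-type box GGGCGG was in 6 of the 10 windows (30.5% of all windows), among them Six4 and Pbx4, and CCAAT was in 4 (34.0%), again with Six4 and Pbx4. None of the 10 held TATAAA (12.9% of all windows), the homeodomain core TAATTA (4.86%), the Hox and Pbx composite TGATNNAT (7.96%) or the Meis motif TGACAG (15.8%).

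Genes that work with or upstream of the homeobox factors, counted with homeobox genes outside the name rule, gave 1 call. In 7 lists of 148 symbols, 87 were tested, the Cuffdiff test called 1 higher and 0 lower, and 5 others had an unadjusted p under 0.05. The share called was 1.15%, where 1.05% of all tested rows were called, and the share with p under 0.05 was 6.9%, where 6.002% of all tested rows had one, so both lie near the background. The call was Aldh1a1, which makes retinoic acid, an inducer of anterior Hox genes, with 29.2 FPKM in WT and 107 FPKM in KO cells, 3.66-fold, where the authors' deposited table lists q = 0.00756. It was 1 of 9 tested genes in the retinoic acid list, whose median log2((KO + 1)/(WT + 1)) was 0.12. The retinoic acid receptors Rara (10.2 and 12.5 FPKM) and Rarg (16.2 and 17.6) and the degrading enzyme Cyp26b1 (9.32 and 9.24) did not pass. Of these, Rara had an unadjusted p under 0.05 in the authors' deposited table, which lists q = 0.622.

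Polycomb genes, whose products keep Hox clusters silent, had 0 calls among 25 in the Cuffdiff test, 0 with an unadjusted p under 0.05, and a median of 0.05. Ezh2, the methyltransferase, stood at 33.8 and 32.8 FPKM and Suz12, its partner, at 57.7 and 57.9. Trithorax and MLL genes, which keep Hox genes active, had 0 calls among 15, 0 with an unadjusted p under 0.05, and a median of −0.01, with Kmt2a at 8.89 and 9.96 FPKM and Men1, menin, at 17.4 and 18.0. Both lists summed to nearly the same level in the groups, 717.3 and 717.2 FPKM for Polycomb and 335 and 332 for Trithorax and MLL.

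Cofactors gave 0 calls in each of 3 lists, and 3 of these genes had an unadjusted p under 0.05. For TALE and other cofactors (5 tested, median −0.07), Pbxip1, a Pbx-interacting protein, measured 17.4 FPKM in WT and 14.9 FPKM in KO cells. Tgif1, a TALE repressor, measured 56.6 and 49.5 FPKM. For cofactors of the sine oculis family (6 tested, median 0.01), the coactivator Eya2 stood at 88.5 and 97.6 FPKM. Of the Tle corepressors, Tle3 was lower in KO cells (9.58 and 5.61 FPKM) and Tle4 higher (20.1 and 24.3 FPKM). Both had an unadjusted p under 0.05 in the authors' deposited table, which lists q = 0.166 for Tle3 and 0.807 for Tle4. Tle1 stood at 19.2 and 17.8 FPKM. For LIM homeodomain cofactors (5 tested, median 0.05), Ldb1, the adaptor of LIM complexes, stood at 32.5 and 34.7 FPKM and Lmo4 at 29.6 and 30.7. The LIM-only factor Lmo1 was low, at 1.1996 FPKM in WT and 0.429 FPKM in KO cells, where the authors' deposited table lists p = 0.0015 and q = 0.11.

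**Figure D5:**
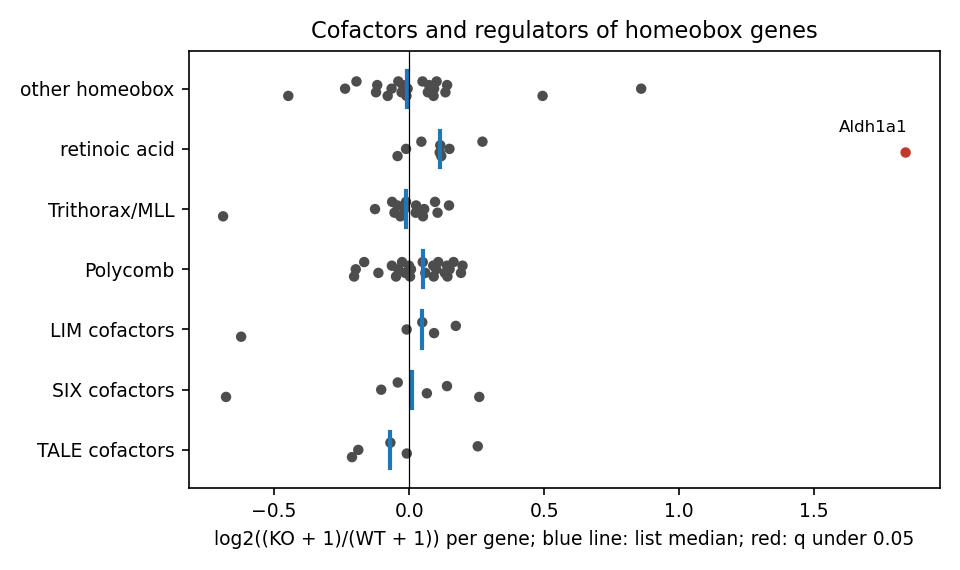
log2((KO + 1)/(WT + 1)) of each tested gene in 7 lists of cofactors, regulators and other homeobox genes (points), with the list median as a blue line and the row called by the authors in red. Aldh1a1 in the retinoic acid list lies far to the right, and the list medians lie between −0.07 and 0.12.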

How the data were processed

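RNA-seq of 3 WT and 3 miR-203 KO samples was deposited as 1 gene table with the layout of a Cuffdiff comparison. Per the submitters' processing notes, the authors used Cuffdiff 2.2.1.3, Cufflinks 2.2.1 and TopHat (listed as 0.9) with rn6. Which annotation and settings they used is not given in the sources used here. Deposited values are 1 FPKM per row and group, the log2 fold of KO over WT, a test score, p-values and q-values. The authors' q matched Benjamini-Hochberg over the 26459 tested rows to within 5.12e-07. Decimal commas were read as points.

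No further test was run, as the table holds no values per sample. Ratios are KO over WT FPKM, and log2 ratios use a pseudocount of 1, which understates changes of low rows. Named rows are all kept members but 1, which is not reported here, with the list genes named after their values were seen. The members and lists were chosen with earlier results of these data known. Adjustment and row choice were tested on simulated data. Python 3.11.15, pandas 2.3.3 and NumPy 2.4.6 were used.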

Additional observations from a re-analysis of the deposited data

How the results depend on the processing

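The count of 1 called homeobox row was 3 at p under 0.05 without adjustment and 1 under the other 6 settings (q under 0.01, adjustment over rows of at least 1 or 5 FPKM, the row with the highest mean, every row, and a fold of at least 2). The median log2 ratio of the members moved from 0.01 to −0.14 when the groups were scaled to the same summed FPKM, which moved the median of all tested rows to −0.10, and stayed within 0.1 under the other 7 settings. Rhox5 kept its direction, with log2 values from 1.93 to 2.19. Of 69 values of single rows, 67 stayed within 1.5-fold of the main value. The authors' log2 folds of Meis3 (1.23) and Pbx4 (1.11) moved by more. The number of rows of at least 1 FPKM, 21, became 23 at 0.5 FPKM and 16 at 5 FPKM. With the separate rows of Hoxb3 and Hoxb5 in place of the row shared by Hoxb3, Hoxb5 and Hoxb6, central paralogs (4, 5, 7 and 8) made up 70.5% of the Hox sum in WT and 70.3% in KO cells. No paired analysis was possible because each group has a single deposited value, and for the same reason leaving out each replicate was not run.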

Other observations

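Homeobox genes outside the name rule gave 0 calls among 22 tested and 1 with an unadjusted p under 0.05 (En2), with a median log2((KO + 1)/(WT + 1)) of −0.01. Pax2, a paired box factor of the Mullerian duct and kidney, measured 41.3 FPKM in WT and 44.3 FPKM in KO cells. En2, a midbrain and hindbrain factor, stood at 7.01 and 4.88 FPKM, where the authors' deposited table lists q = 0.19. Cdx2, an activator of central Hox genes in the embryo, had a short row (chromosome 12, 9470348 to 9470666). That row was low, at 0.180 FPKM in WT and 1.14 FPKM in KO cells, where the authors' deposited table lists q = 0.997. Wnt7a, a Wnt ligand of uterine epithelium, was the one called uterine marker among 6 tested, and it fell from 21.8 to 13.5 FPKM, where the authors' deposited table lists q = 0.00756. The uterine markers Sox17 (36.4 FPKM in WT and 30.1 in KO cells) and Foxa2 (0.213 and 0.628) had an unadjusted p under 0.05 but were not called.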
